A study of Mus musculus with 2 samples.

Results

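The cells described here are the endothelial cells of the mouse lambdoid junction at E11.5, the part of the upper face in which the nasal and maxillary prominences meet, and the split of these cells by Dll4 and Gja4. A cell was taken as endothelial when at most 10% of its unique molecular identifiers (UMIs) came from mitochondrial genes, when Cdh5, Kdr and Cldn5 together had 5 or more UMIs with at least 1 of Cdh5, and when Epcam had at most 1. The members, chosen by these measured UMIs, were 355 of 14596 cells, 228 of 7909 in the wild-type library and 127 of 6687 in the Crect lacZ library. Within each library the endothelial cells were then divided into Dll4/Gja4-positive cells, with 2 or more UMIs of Dll4 plus Gja4, Dll4/Gja4-zero cells, with none, and the cells with 1 UMI between them. There were 46 positive, 55 intermediate and 127 zero cells in the wild-type library and 53, 19 and 55 in the Crect lacZ library.

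The study measured single-cell RNA in 2 libraries, both labelled C57BL/6J. One came from wild-type embryos and the other from embryos with genotype Crect; ROSA26-lacZ, in which Crect is a Cre transgene active in the surface ectoderm and the ROSA26 locus carries a lacZ reporter. Each library pooled trypsin-dissociated tissue of 4 to 5 embryos, so a genotype and its library cannot be told apart and no difference between genotypes has a replicate check. The libraries held 7966 and 6894 cell barcodes with 126638790 and 127765199 UMIs, and 76 barcodes occurred in both, of which 1 was an endothelial cell in each library. The endothelial cells had a median of 24371.5 UMIs in the wild-type and 33247 in the Crect lacZ library.

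Endothelial cells line all blood vessels. In the embryo they take on arterial or venous properties. Vegf and the Notch pathway, with Dll4 as the endothelial ligand, promote arterial genes such as Hey1, Efnb2, Gja4 (connexin 37) and Gja5 (connexin 40), and the nuclear receptor Nr2f2 maintains venous genes such as Ephb4. Dll4, Esm1 and Apln also mark the tip cells that lead new sprouts, so Dll4 alone does not separate an artery from a sprouting capillary.

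The markers bore out the endothelial label. Pecam1, an adhesion molecule of endothelial junctions that the rule did not use, stood at 277 CPM (a gene's UMIs scaled to a common total over the summed UMIs of a group of cells) in wild-type and 288 in Crect lacZ endothelial cells against 2.81 and 3.45 in all other cells. Esam, another junction protein, stood at 310 and 301 CPM against 2.26 and 2.51. Sox17, a transcription factor of the arterial endothelium, stood at 113 and 61.7 CPM against 0.501 and 0.461. Of 36 endothelial identity genes, 32 were at least 4-fold higher than in the other cells of both libraries. The exceptions were Fli1, Tal1, Gata2 and Etv2. Of all 15998 genes measured, 4.35% met this fold, and since the rule chose the cells this is a description. All 7 mesenchymal, all 6 erythroid and all 4 ectodermal markers other than Epcam were at least 4-fold lower than in other cells of both libraries. The remaining lists were less uniform: 5 of 6 macrophage, 4 of 6 mural, 2 of 4 neuron, 1 of 5 megakaryocyte and 1 of 4 crest glia markers were this low. The mural marker Abcc9 was at least 4-fold higher in endothelial cells of both libraries. Summed over the list, mesenchymal markers stood at 139 and 154 CPM in endothelial cells and at 1487 and 1580 CPM in mesenchyme-gated cells, defined as cells with 2 or more UMIs of Prrx1 plus Twist1 and none of Cdh5, Kdr, Cldn5 or Epcam.

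Few cells lay at the edge of the class. Only 3 wild-type cells and no Crect lacZ cell had exactly 5 UMIs of the class genes, and 1 wild-type cell had 4 while meeting the other conditions. The class sum ran from 5 to 186 UMIs with a median of 38 in the wild-type and from 9 to 171 with a median of 47 in the Crect lacZ library. The edge of the inner split was less empty. Of the positive cells, 15 wild-type and 14 Crect lacZ cells had exactly 2 UMIs of Dll4 plus Gja4, and the 55 and 19 intermediate cells lay just outside. Both genes were seen in 20 and 24 of the positive cells, Dll4 alone in 23 and 24, and Gja4 alone in 3 and 5.

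Endothelial cells made up 2.88% of the wild-type library (95% exact Clopper-Pearson interval 2.53 to 3.28) and 1.90% of the Crect lacZ library (1.59 to 2.26). Dll4/Gja4-positive cells made up 20.2% of the wild-type (15.2 to 26.0) and 41.7% of the Crect lacZ endothelial cells (33.0 to 50.8). These intervals cover counting error only, and a share set by a fixed number of UMIs moves with depth. When every cell was thinned to 5000 UMIs before the rule was applied, the positive shares were 3.16% and 13.0%, and at 12000 UMIs, an alternative chosen after seeing the data, they were 7.96% and 18.4%. The Crect lacZ share was the higher at each depth. The zero class is a class without a UMI of Dll4 and Gja4, not without their expression.

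Positive and zero cells were compared gene by gene on UMIs summed per library and class, with the library as a block (edgeR's quasi-likelihood test, Benjamini-Hochberg adjustment over all 9605 genes tested, of which 9600 were not gate genes). A gene was called when the adjusted p was under 0.05 and the fold 2 or more. By this rule 65 genes (0.677%) were higher and 32 genes (0.333%) lower in positive cells. These 2 shares are the background for every count of calls in a gene list below. All 97 called genes had the same sign in both libraries. The calls came from 1 fit to both libraries, which favours such genes, so the shared sign is not a replicate check. Without the fold, 300 genes were higher and 152 lower at the adjusted p alone. The counts depended on the setting: DESeq2 called 9 higher and 3 lower, edgeR without the library block 1 and 0 (558 genes at an unadjusted p under 0.05), and edgeR with raw gates but sums from cells thinned to 12000 UMIs 29 and 9. The thinned sums left 6564 genes to test. The Dll4 and Gja4 values were fixed by the rule: positive cells stood at 71.0 and 66.5 CPM of Dll4 and at 48.9 and 80.7 CPM of Gja4 in the wild-type and Crect lacZ libraries. Depth differed between the classes in the wild-type library, with medians of 32879 UMIs in positive and 21208 in zero cells, and hardly in the Crect lacZ library, with 34956 and 35263.

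**Figure D1:**
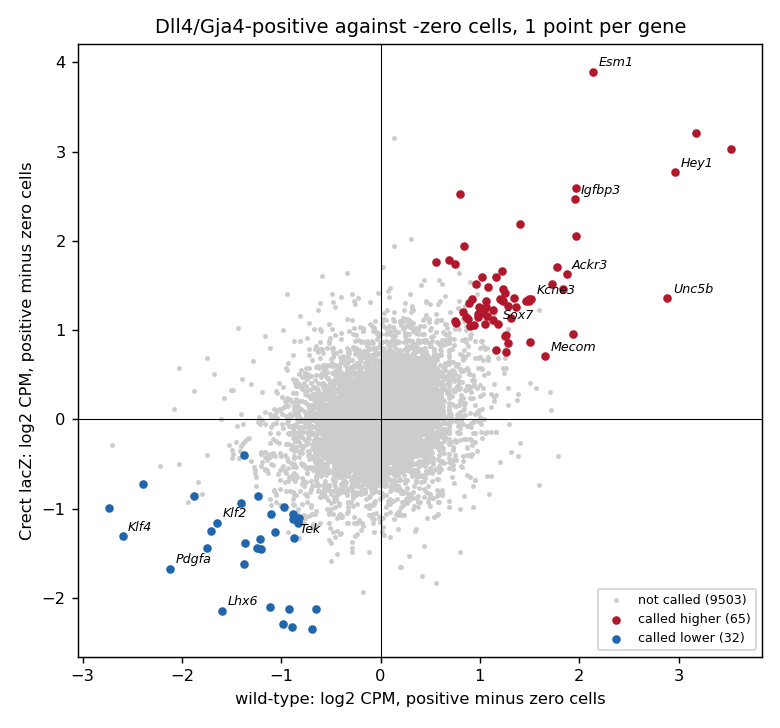
Log2 difference in CPM, positive minus zero cells, for each of 9600 tested genes. The wild-type library is on the x axis and the Crect lacZ library on the y axis. An average of 2 counts, scaled to the size of each sum, was added before the log. The 65 genes called higher (red) lie in the upper right and the 32 called lower (blue) in the lower left.

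Of the 26 genes on the arterial list besides Dll4 and Gja4, 17 passed the filter on low counts. Of these, 5 were called higher (Hey1, Igfbp3, Unc5b, Sema3g and Mecom), none was called lower, 14 were higher at the adjusted p alone with the called ones among them, and all 17 lay above 0, with a median log2 change of 0.89 against -0.01 over all genes tested. Sema3g and Jag2 passed the filter through the positive cells only, so a call of theirs is no support for the list. Of the other 15 genes, 4 were called higher and the median was 0.89. Of all 65 genes called higher, 18 passed through the positive cells only, and of the 32 called lower, 4 through the zero cells only.

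Hey1, a transcriptional repressor induced by Notch, had the largest change of the list. It stood at 44.2 CPM in positive, 9.08 in intermediate and 4.89 in zero cells of the wild-type library, and at 52.3, 9.71 and 6.67 CPM in the Crect lacZ library. Both positive sums were far above all 4 others. The fitted fold was 8.19 (95% interval 5.87 to 11.4, edgeR adjusted p = 1.46e-16). In the wild-type positive cells 34 of the 84 UMIs came from 2 of the 46 cells. Without the 2 highest cells of each class, a choice made after seeing the data, positive levels were 27.8 and 44.8 CPM. The ratios of positive over zero cells were then 7.52 and 8.02. The median positive cell had 5.96 and 37.8 CPM, and the median zero cell had none. Mesenchyme-gated cells also held Hey1, at 22.1 and 22.5 CPM, which is above the zero cells and below the positive cells. Hey1 (GRCm38, chromosome 3, 8663359 to 8667256, minus strand) was seen in 50% and 56.6% of positive cells and 8.66% and 23.6% of zero cells. With each cell thinned to 5000 UMIs these shares were 8.70% and 18.9% against 3.15% and 0%, and 9.41% and 9.95% in mesenchyme-gated cells.

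Igfbp3, a secreted binding protein of insulin-like growth factors, stood at 469, 236 and 120 CPM in positive, intermediate and zero cells of the wild-type library and at 762, 358 and 131 CPM in the Crect lacZ library. The level stepped up with the Dll4/Gja4 class in both libraries, and the fitted fold of positive over zero cells was 4.65 (4.05 to 5.34, edgeR adjusted p = 7.02e-30). Mesenchyme-gated cells held 1.83 and 3.36 CPM. Single cells overlapped: wild-type positive cells ran from 0 to 1269 CPM with a median of 383, and zero cells from 0 to 2155 with a median of 60.6. In the Crect lacZ library positive cells ran from 39.0 to 2934 CPM with a median of 713 and zero cells from 0 to 1235 with a median of 60.7.

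Unc5b, a netrin receptor found on arterial and tip endothelium, stood at 63.6, 21.8 and 7.82 CPM in the wild-type classes and at 71.4, 12.9 and 26.2 CPM in the Crect lacZ classes. Positive sums were highest in both libraries, but the Crect lacZ zero sum rested on few cells. Of its 55 UMIs, 36 came from 2 of the 55 cells, at 490 and 353 CPM, and the median cell had none. Without the 2 highest cells of each class, a choice made after seeing the data, the Crect lacZ levels were 63.9, 10.8 and 9.42 CPM, a ratio of 6.78 of positive over zero cells. The wild-type ratio was then 8.10. With all cells the fitted fold was 4.14 (3.16 to 5.43, edgeR adjusted p = 6.16e-13), made of a ratio of 8.13 (exact Poisson interval 5.22 to 13.2) in the wild-type and 2.73 (2 to 3.77) in the Crect lacZ library. Mesenchyme-gated cells held 48.9 and 46.6 CPM of Unc5b, more than the zero cells. Mecom, a zinc finger transcription factor, stood at 84.1 against 26.1 CPM in the wild-type and 61.6 against 35.7 CPM in the Crect lacZ library, a fitted fold of 2.36 (1.89 to 2.94, edgeR adjusted p = 2.14e-08). Sema3g, a secreted semaphorin of arterial endothelium, was rarer and is named after its values were seen. It stood at 6.31 against 3.26 CPM and 9.76 against 0.953 CPM (edgeR adjusted p = 0.0178), from 12 and 10 UMIs in the wild-type and 22 and 2 in the Crect lacZ library.

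Other arterial genes differed by less than 2-fold. Efnb2, the arterial ephrin ligand, stood at 58.4 against 24.1 CPM in the wild-type and 50.6 against 33.3 CPM in the Crect lacZ library (fold 1.88, 1.49 to 2.38, edgeR adjusted p = 0.000102). Nrp1, a co-receptor for Vegf and semaphorins, stood at 312 against 192 and 294 against 149 CPM (fold 1.74, adjusted p = 1.02e-09 by edgeR). The Notch receptors had folds of 1.45 for Notch1 and 1.57 for Notch4, at edgeR adjusted p of 0.00229 and 0.0182. Sox17, given as a marker of the class, stood at 115 against 100 CPM in the wild-type library and 77.2 against 42.9 in the Crect lacZ library. Its fold of 1.34 (1.13 to 1.59) had an edgeR adjusted p of 0.0379, and its log2 change turned to -0.40 when cells were gated and summed at 5000 UMIs each, and was below 0 at 12000 UMIs too. Vegfc (edgeR adjusted p = 0.0512) and Jag2 (0.427) did not pass.

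Several textbook arterial genes did not pass the filter on low counts. Gja5 had 6 UMIs in the wild-type positive cells, 1 in the Crect lacZ positive cells and none in intermediate or zero cells. Bmx, an arterial kinase, had no UMI in any positive or zero cell. Cxcr4, a chemokine receptor of arterial and tip cells, was also left out by the filter. It had 8 UMIs in positive and 1 in zero cells of the wild-type library (4.21 and 0.326 CPM) and 62 and 2 UMIs in the Crect lacZ library (27.5 and 0.953 CPM). Hey2 and Jag1 had at most 26 UMIs in any positive or zero class, and Hey2 was at 25.2 and 20.3 CPM in mesenchyme-gated cells.

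**Figure D2:**
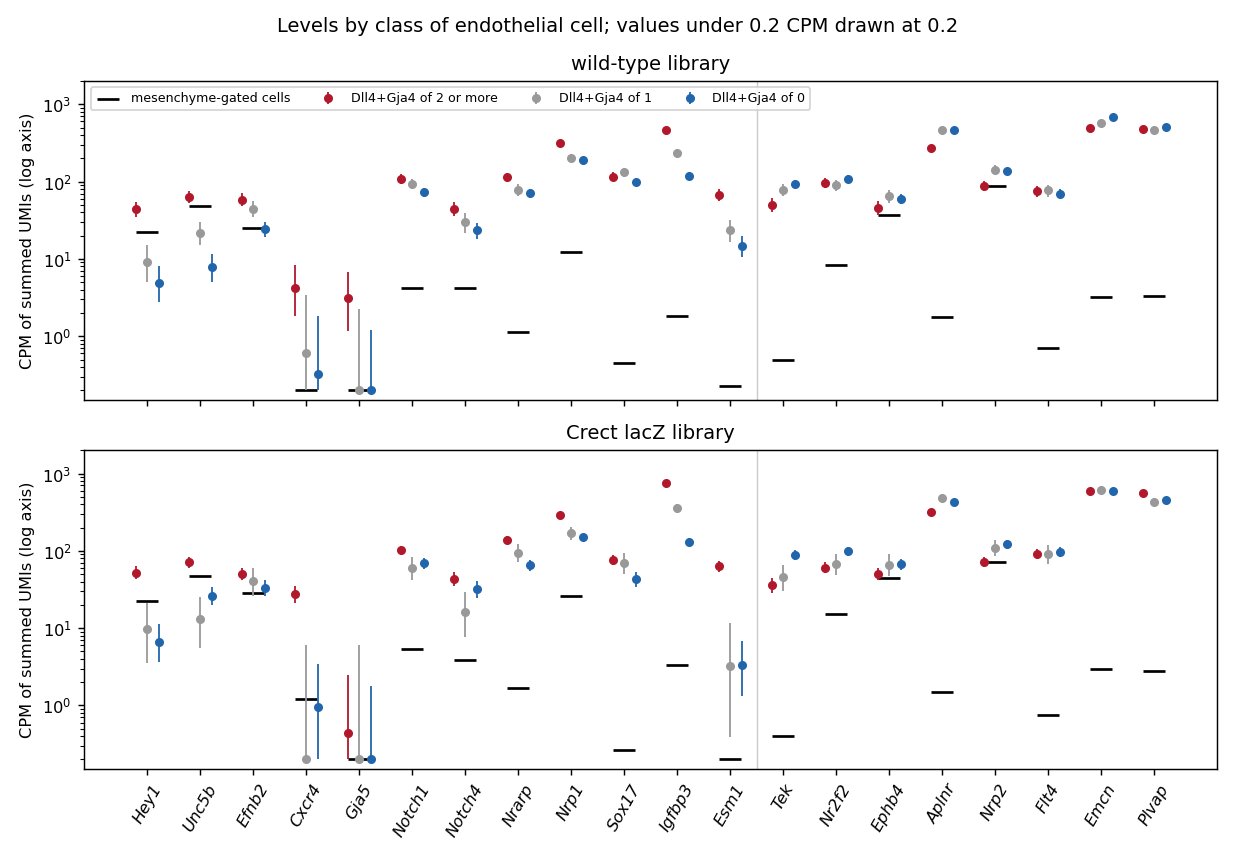
CPM of summed UMIs on a log axis for 12 arterial or sprouting genes (left of the line) and 8 venous genes (right) in each library, by class, with exact 95% Poisson intervals that cover counting error only. Black dashes are mesenchyme-gated cells. Igfbp3, Esm1 and Hey1 are highest in positive cells of both libraries, and Emcn, Plvap and Flt4 lie close together in all 3 classes.

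Venous genes were lower in part and stayed present in positive cells. Of 14 venous genes 11 were tested. None was called higher, 1 was called lower (Tek), 5 were lower at the adjusted p alone, and the list's median log2 change was -0.46. Tek encodes Tie2, the angiopoietin receptor, which all endothelium expresses and veins more strongly. It stood at 50.5, 77.5 and 93.2 CPM in positive, intermediate and zero cells of the wild-type library and at 35.9, 45.3 and 87.7 CPM in the Crect lacZ library. The order of the sums was the same in both, and Tek was 2.14-fold lower in positive than in zero cells (1.77 to 2.59, edgeR adjusted p = 8.78e-09). Its single-cell medians were 42.2, 56.1 and 75.9 CPM in the wild-type library and 31.4, 23.0 and 75.7 in the Crect lacZ library. The Crect lacZ intermediate median thus lay below that of the positive cells.

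Nr2f2, the venous nuclear receptor, stood at 95.2 against 110 CPM in the wild-type and 60.8 against 99.1 CPM in the Crect lacZ library. The difference was 1.37-fold (1.16 to 1.62, edgeR adjusted p = 0.0168), and Nr2f2 was seen in 87.0% and 81.1% of positive cells and 79.5% and 83.6% of zero cells. Mesenchyme-gated cells, with lower median depths of 13433.5 and 17165 UMIs, held it in 9.62% and 18.0%. After thinning to 5000 UMIs, Nr2f2 was in 32.6% and 24.5% of positive, 44.1% and 30.9% of zero and 3.82% and 6.58% of mesenchyme-gated cells. Aplnr, the apelin receptor of venous endothelium, stood at 273 against 468 and 315 against 430 CPM, 1.56-fold lower in positive cells (1.38 to 1.77, edgeR adjusted p = 2.58e-07), and was seen in 95.7% and 94.3% of positive and 2.51% and 2.66% of mesenchyme-gated cells. Nrp2, a co-receptor of veins and lymphatics, was 1.64-fold lower (1.40 to 1.92, edgeR adjusted p = 5.61e-06), and mesenchyme-gated cells held it at 88.1 and 70.6 CPM. Ephb4, the venous receptor for Efnb2, stood at 45.8 against 59.7 and 50.1 against 67.2 CPM and did not pass (edgeR adjusted p = 0.0628). Neither did the sialomucin Emcn (0.0866), the lymphatic and venous Vegf receptor Flt4 (0.942) or the capillary and venous protein Plvap (0.760). With Nr2f2 and Aplnr in most positive cells and Gja5 and Bmx near 0, the classes are called here by the genes that made them and not arterial and venous.

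**Figure D3:**
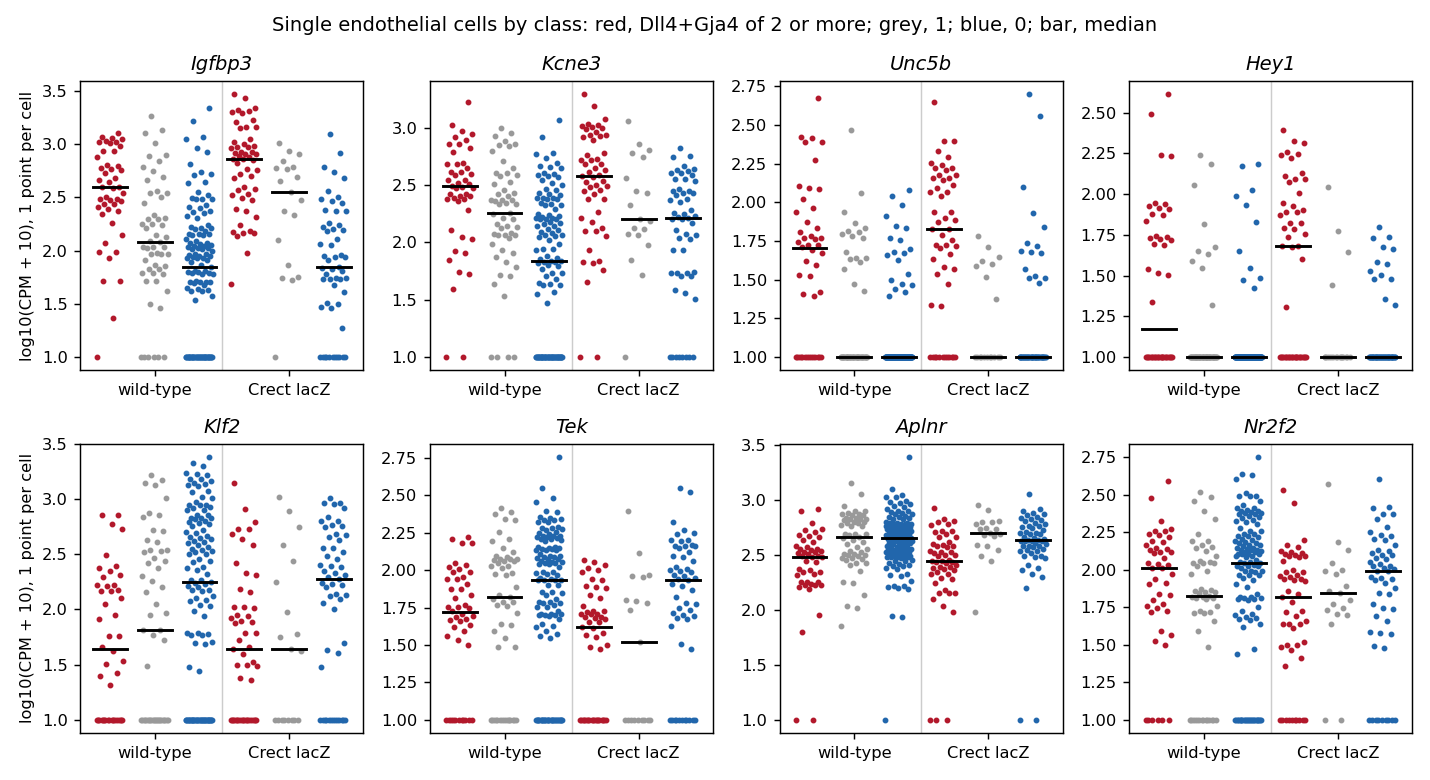
Log10 of CPM plus 10 in each of the 355 endothelial cells for 8 genes, by library and class (red positive, grey intermediate, blue zero; bar, median). Igfbp3 medians are 383 and 713 CPM in positive cells and 60.6 and 60.7 in zero cells of the wild-type and Crect lacZ libraries, and the Nr2f2 values of the classes overlap.

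Of 12 tip and sprouting genes tested, 5 were called higher (Esm1, Unc5b, Igfbp3, Adm and Kcne3) and none lower. The other 7 were not called, 9 of the 12 were higher at the adjusted p alone, and the median log2 change was 0.66. Of the 5 called, 2 (Unc5b and Igfbp3) are also on the arterial list. Esm1, the secreted proteoglycan endocan of tip cells, stood at 67.8, 23.6 and 14.7 CPM in the wild-type classes and 63.4, 3.24 and 3.33 in the Crect lacZ classes. The positive sums of the libraries were alike and their zero sums were not. In the Crect lacZ zero cells 6 of the 7 UMIs came from 2 cells. The fitted fold was 6.69 (4.99 to 8.98, edgeR adjusted p = 4.93e-17). Kcne3, a potassium channel subunit, stood at 352, 239 and 122 CPM and at 491, 301 and 184 CPM, a fold of 2.70 (2.37 to 3.07, edgeR adjusted p = 8.46e-21). Apln, the ligand of Aplnr and a tip cell gene, went the other way without passing the test, at 47.9 against 66.8 and 36.8 against 45.3 CPM (edgeR adjusted p = 0.0920). Angpt2, an angiopoietin of sprouting vessels, was too low to test, at 3.33 to 5.32 CPM in positive and zero cells.

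Among 17 tested Notch pathway genes, Hey1 alone was called, and the median log2 change was 0.18. Nrarp, a feedback inhibitor induced by Notch, stood at 114 against 71.1 and 140 against 65.3 CPM (fold 1.80, 1.53 to 2.12, edgeR adjusted p = 1.97e-07). Hes5, another target of the pathway, had no UMI in endothelial cells of either library.

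Of 9 tested genes that respond to blood flow, 3 were called lower in positive cells (Klf2, Klf4 and Ptgs1) and none higher. The list did not move as one: Cav2 and Tmem204 were higher at the adjusted p alone, by 1.70 and 1.47-fold (edgeR adjusted p = 0.00118 and 0.00148). Klf2, the main transcription factor of the response to laminar flow, stood at 132, 278 and 416 CPM in positive, intermediate and zero cells of the wild-type library and at 115, 199 and 246 CPM in the Crect lacZ library. The sums were ordered by class in both libraries, and Klf2 was 2.68-fold lower in positive than in zero cells (2.33 to 3.09, edgeR adjusted p = 7.50e-19). Its single-cell medians were 33.6 CPM in positive cells of both libraries, 55.6 and 34.0 in intermediate cells and 168 and 177 in zero cells. The Crect lacZ intermediate median thus lay at that of the positive cells, while single cells of every class reached at least 711 CPM. Klf4, a relative of Klf2, stood at 7.89 against 52.2 and 12.0 against 29.5 CPM, 4.07-fold lower (2.95 to 5.62, edgeR adjusted p = 6.82e-10), and mesenchyme-gated cells held 35.5 and 38.3 CPM of it. Ptgs1, the prostaglandin synthase Cox1, stood at 15.3 against 41.1 CPM and 13.7 against 17.6 CPM (edgeR adjusted p = 0.00250), so most of its difference lay in the wild-type library. Nos3, the endothelial nitric oxide synthase and another flow response gene, did not pass, at 38.4 against 31.6 and 35.9 against 35.3 CPM (edgeR adjusted p = 0.813). Of the dissociation response genes, which handling of cells can induce, 1 of 21 was called, Fos, and it was lower in positive cells at 3.16 against 14 and 12.0 against 21.4 CPM. At the edgeR adjusted p alone, 2 of the 21 were higher.

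**Figure D4:**
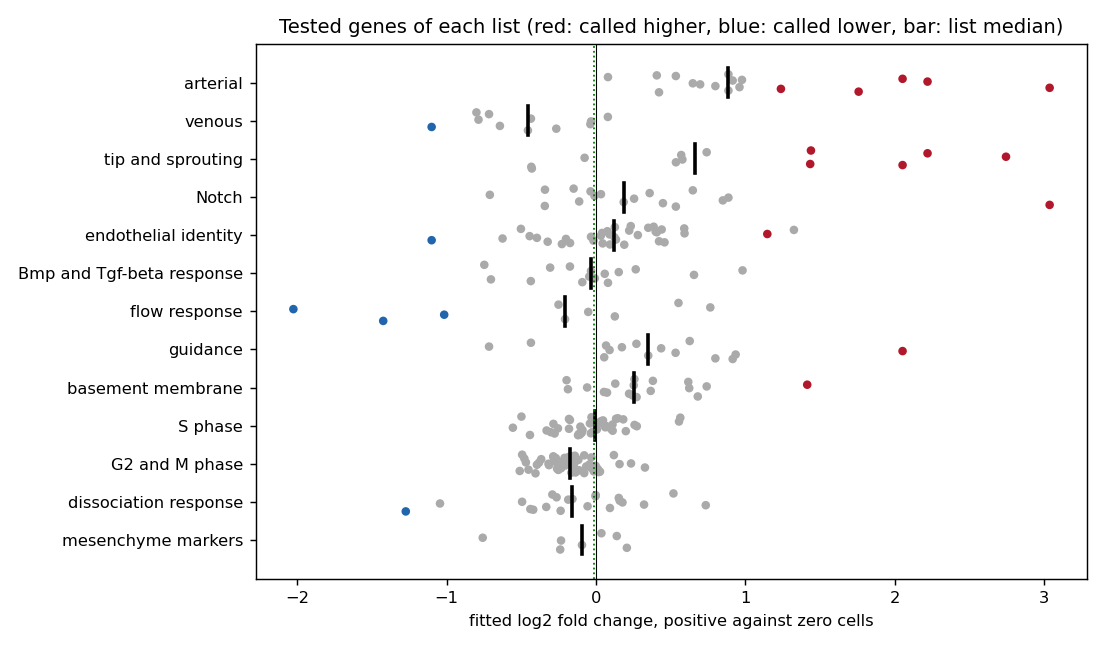
Fitted log2 fold change, positive against zero cells, of each tested gene in 13 lists (red called higher, blue called lower, grey not called; black bar, list median; dotted line, median of all tested genes). The arterial median is 0.89, the venous median -0.46 and the S phase median -0.01.

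Beyond the lists, other called genes were named by size among those with 20 CPM or more in the higher class of both libraries. Clec1a, a lectin-like receptor of endothelium, stood at 27.9 against 7.17 and 24.8 against 8.10 CPM (fold 3.41, edgeR adjusted p = 1.50e-06). Gpihbp1, which holds lipoprotein lipase on capillary walls, stood at 24.7 against 6.85 and 25.7 against 8.10 CPM (fold 3.31, edgeR adjusted p = 3.50e-06). Sox7, a relative of Sox17, had about the same levels in both libraries, 73.6 against 32.0 and 74.9 against 33.8 CPM (fold 2.21, edgeR adjusted p = 1.70e-08). The phosphatase gene Ptp4a3, the potassium channel gene Kcna5 and the sulfotransferase gene Chst1 had folds of 2.43, 2.52 and 2.48. Apoe, a lipid carrier, had a fold of 2.21, and mesenchyme-gated cells held it at 51.0 and 40.4 CPM against 61.5 and 54.5 in positive cells. Its log2 change was -0.51 with cells gated and summed at 5000 UMIs each, and its call was kept in 9 of 15 alternative settings.

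On the lower side, Lhx6, a LIM homeobox factor best known in jaw mesenchyme and forebrain, stood at 6.84 against 22.5 CPM in the wild-type and 4.88 against 23.3 CPM in the Crect lacZ library. The difference was 4.00-fold (2.65 to 6.04, edgeR adjusted p = 1.20e-06), and mesenchyme-gated cells held only 4.19 and 6.09 CPM. The adhesion protein gene Flrt2 and the RNA-binding protein gene Khsrp were 2.16-fold and 2.01-fold lower. Mesenchymal markers summed to 127 against 143 and 156 against 169 CPM in positive against zero cells. Removing the cells highest in these markers left 205 wild-type and 114 Crect lacZ endothelial cells. There edgeR called 76 genes higher and 36 lower among 9290 tested. Of the main calls, 96 were tested, 96 had the same direction, and 59 higher and 28 lower ones were called again. Where the mesenchymal UMIs came from was not tested. Neuron markers, of which only Stmn2 was tested, summed to 14.2 against 52.2 CPM in the wild-type and 42.1 against 37.6 CPM in the Crect lacZ library. Stmn2 was lower in positive cells at the edgeR adjusted p alone, with a log2 change of -0.80, and was not called.

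The edgeR rule called 0 of 42 S phase genes and 0 of 52 genes of G2 and mitosis, at medians of -0.01 and -0.17 on the log2 scale. Over all genes tested it called 0.677% higher and 0.333% lower, so the absence of calls in lists of this size says little about proliferation. Of the G2 and mitosis genes, 2 were lower at the adjusted p alone, and only 7 of the 52 lay above 0, against 21 of the 42 S phase genes. Summed, the G2 and mitosis genes stood at 7249 against 8309 CPM in positive against zero cells of the wild-type library. In the Crect lacZ library the sums were 6496 against 6424 CPM. Cdkn1c, a cell cycle inhibitor named after its values were seen, stood at 499 against 266 and 466 against 214 CPM, a fold of 1.97 (1.74 to 2.23, edgeR adjusted p = 1.30e-13) just under the call. Of 35 endothelial identity genes tested, 1 was called higher (Sox7) and 1 lower (Tek). At the adjusted p alone 9 were higher and 1 lower, and 24 of the 35 lay above 0.

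The gate genes were also read one at a time. The test of cells with at least 1 UMI of Dll4 against the other endothelial cells called 10 genes higher and 3 lower (edgeR), and the same test on Gja4 called 60 and 24. In cells with at least 1 UMI of Dll4, Gja4 was 4.38-fold higher than in the other endothelial cells of the wild-type library (exact interval 2.63 to 7.65) and 4.25-fold in the Crect lacZ library (2.89 to 6.44). In cells gated on Gja4, Dll4 was 2.32-fold (1.68 to 3.18) and 2.88-fold higher (2.10 to 3.96). Igfbp3 was 2.55 and 4.59-fold higher under the Dll4 gate and 3.20 and 3.54-fold under the Gja4 gate. Unc5b was 5.03 and 1.73-fold higher under the Dll4 gate and Esm1 2.99 and 11.4-fold, so the libraries differed in both. Klf2 was lower under both, by 2.05 and 1.70-fold under Dll4 and by 1.91 and 1.31-fold under Gja4. Nr2f2 under the Gja4 gate stood at 102 against 100.3 CPM in the wild-type and 55.4 against 85.6 CPM in the Crect lacZ library. These ratios are descriptions, and cells with more UMIs are likelier to show either gate gene.

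The bases before the start sites of called genes were read for 3 short motifs on both strands: TGGGAA, the core bound by the Notch effector Rbpj, CCGGAA, a core of Ets factors such as Erg, and ACAAT, a core of Sox factors. The sequences are from RefSeq (GRCm38.p6), which gave an entry for 44 of the 65 genes called higher and 28 of the 32 called lower. In these windows of 250 bases the Rbpj core was in 22.7% of the genes called higher, 25% of those called lower and 24.1% of all 27025 genes. The Ets core was in 13.6%, 14.3% and 13.6%, and the Sox core in 25%, 21.4% and 30.9%. The shares of called genes were thus close to or below those of all genes. A set of 4 examples is printed because they carry these motifs in genes described above, 3 higher and 1 lower. They were chosen after the matches were seen, each ends at the base before the start site, and capitals mark a motif or its reverse complement. Igfbp3 (chr11:7213924-7214173, minus strand) and Unc5b (chr10:60831582-60831831, minus) each hold 1 Ets core, beginning 62 and 197 bases before the start. Kcna5 (chr6:126535556-126535805, minus) holds 2 Rbpj cores, 164 and 126 bases before it, and Tek (chr4:94739039-94739288, plus) holds 2 Sox cores, 63 and 7 bases before it. A match describes the letters only.
Igfbp3: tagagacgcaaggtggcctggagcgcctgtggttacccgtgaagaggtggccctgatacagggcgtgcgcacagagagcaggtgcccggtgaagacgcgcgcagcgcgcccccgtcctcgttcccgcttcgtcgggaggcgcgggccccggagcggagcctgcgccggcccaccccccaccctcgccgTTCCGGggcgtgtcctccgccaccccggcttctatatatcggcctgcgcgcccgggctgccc
Unc5b: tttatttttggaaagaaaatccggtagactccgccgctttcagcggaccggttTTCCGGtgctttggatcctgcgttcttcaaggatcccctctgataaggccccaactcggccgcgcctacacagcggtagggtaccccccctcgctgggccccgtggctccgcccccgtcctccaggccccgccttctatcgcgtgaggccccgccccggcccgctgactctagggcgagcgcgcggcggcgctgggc
Kcna5: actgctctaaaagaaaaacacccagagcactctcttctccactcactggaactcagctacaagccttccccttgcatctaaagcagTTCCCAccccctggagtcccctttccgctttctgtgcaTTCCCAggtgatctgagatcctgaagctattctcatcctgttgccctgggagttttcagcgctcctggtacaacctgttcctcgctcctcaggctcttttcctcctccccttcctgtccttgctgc
Tek: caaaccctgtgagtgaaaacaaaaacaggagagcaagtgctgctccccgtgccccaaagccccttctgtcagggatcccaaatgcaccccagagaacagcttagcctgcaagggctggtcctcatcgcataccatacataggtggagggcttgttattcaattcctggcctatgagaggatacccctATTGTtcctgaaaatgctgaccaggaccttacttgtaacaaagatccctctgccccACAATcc

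Between the genotypes, endothelial cells could be described but not tested. Of 11020 genes with 20 or more UMIs, 1.34% were at least 2-fold higher and 3.38% at least 2-fold lower in the Crect lacZ library. Several of the largest ratios held in all cells: the predicted gene Gm10260 stood at 9.97 against 409 CPM in endothelial and 7.39 against 367 CPM in other cells of the wild-type and Crect lacZ libraries. H2-K1, a class I histocompatibility gene of a family of near-identical copies, stood out by cell type. It was at 0.755 against 41.6 CPM in endothelial cells, a ratio of 55.1 (exact Poisson interval 23.2 to 172), and at 1.28 against 7.64 CPM in other cells, a ratio of 5.98. Lower in the Crect lacZ endothelial cells were the histone gene Hist1h1b, at 294 against 30.6 CPM, with 340 against 49.8 CPM in other cells, and B3gnt2, at 5.59 against 0.402 CPM.

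Among the genes of the split, ratios over all endothelial cells include the different class makeup, with 20.2% positive cells in the wild-type and 41.7% in the Crect lacZ library. The Crect lacZ endothelial cells held 2.49 times the Gja4 (1.94 to 3.21), 1.79 times the Igfbp3 (1.68 to 1.91) and 0.602 times the Klf2 (0.556 to 0.652) of the wild-type cells. Within positive cells the Gja4 ratio was 1.65, and the Klf2 ratio was 0.870 within positive and 0.591 within zero cells. Cxcr4 was at 8.52 times the wild-type level (4.35 to 18.6), from 10 UMIs in the wild-type and 64 in the Crect lacZ endothelial cells, and at 2.53 times in other cells. Its ratio was 6.54 within positive cells and 2.92 within zero cells, the latter from 1 and 2 UMIs. Sox17 was at 0.548 times the wild-type level (0.478 to 0.627), and it was lower in both positive cells (0.670) and zero cells (0.428), while in other cells the ratio was 0.920. Dll4 stood at 27.8 and 33.4 CPM, a ratio of 1.20 (0.968 to 1.49). Igfbp3 within zero cells differed by a ratio of 1.10 and within positive cells by 1.63.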

How the data were processed

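Single-cell 3' libraries (10x Genomics v2 kit, per the labels) were made from 2 pools of embryos. The authors deposited unnormalized UMI counts for each gene in each barcode, made with Cell Ranger 2.0 on mm10 per the submitters' processing notes. For strand and barcode handling, the sources used here give no statement. The members, gene lists and named genes were chosen with earlier results of these data known.

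Cells were chosen by the UMI rule in the report. No cell was removed as a doublet: Scrublet (scanpy 1.11.5) marked 195 wild-type barcodes, and 3 in the Crect lacZ library, too few for a working threshold, so its 414 highest scores were marked instead. Of the endothelial cells 19 and 13 were marked. Counts were summed into 4 sums, library by class, and tested with edgeR 4.0.16 in R 4.3.3 (TMM, filterByExpr, quasi-likelihood, library as a block). With 1 residual degree of freedom and a prior of 72.6, p-values rest on spread shared across genes and 2 pools of embryos, not on single animals. On simulated data with 200 of 9418 genes changed, 78% of 2-fold and 95% of 4-fold changes were recovered, with 10 false calls. Recovery there meant an adjusted p under 0.05 in the right direction, and a false call an adjusted p under 0.05. The 2-fold limit of the calls was not applied, so these values do not describe the full rule. The common biological coefficient of variation was 0.0528. Intervals of fitted folds are 1.96 standard errors wide on each side. Shares of cells carry exact Clopper-Pearson intervals and ratios exact Poisson intervals (scipy 1.17.1), for counting error only.

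Named genes were a fixed list of arterial, venous and sprouting genes; the largest called changes of each list and the 10 largest each way over all genes, among those at 20 CPM or more in the higher class of both libraries; and the 5 largest ratios each way between libraries. Some genes that the rule named are not reported here, and other names are said to be chosen after their values were seen. Alternatives were DESeq2 1.42.0, other scaling, filters, gates, depths and cell filters. Gene positions came from GENCODE vM21. Genes are given at their symbols, and reads of near-identical copies cannot be separated.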

Additional observations from a re-analysis of the deposited data

Results flagged for a closer look

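The lacZ transgene entry of the Crect lacZ library lies outside the comparisons above. It had 9 UMIs in endothelial cells, in 8 of 127 cells (6.30%, exact Clopper-Pearson interval 2.76 to 12.0), at a median depth of 33247 UMIs. In mesenchyme-gated cells it was in 2.28% (1.85 to 2.78) at a median depth of 17165, and in cells with 2 or more UMIs of Epcam in 26.4% (23.3 to 29.7). The levels were 1.81, 1.42 and 15 CPM. The Cre entry had 1 UMI in the endothelial cells. The endothelial level was close to that of the mesenchyme-gated cells, and is not read as expression. The wild-type gene table has no such entry, so there is no control value.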

How the results depend on the processing

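Of 65 genes called higher and 32 lower, DESeq2 called 9 and 3 (66 of the 97 had no adjusted p), the fit without the library block 1 and 0 (edgeR, 558 genes at an unadjusted p under 0.05), the gate on Dll4 alone 10 and 3, and the gate of 3 or more UMIs 81 and 57. Thinned cells left fewer genes to test than the 9600 of the main fit. With gates and sums from cells thinned to 5000 UMIs there were 5 and 0 calls among 2870 genes (edgeR, 247 at an unadjusted p under 0.05). At 12000 UMIs there were 8 and 1 among 6415 genes. Of the 97 main calls, only 16 and 44 were tested at these depths. With gates on raw counts and sums thinned to 12000 UMIs there were 29 and 9 among 6564 genes, with 40 of the 97 tested. The last 2 settings were chosen after seeing the data, as was a window of 15000 to 60000 UMIs per cell, with 59 and 30 calls. The share of calls that were higher moved from 67.0% to 88.9% at 12000 UMIs (8 of 9 calls), 76.3% with raw gates and thinned sums and 58.7% with 3 or more UMIs. Directions of the 97 calls held wherever tested, except Apoe at 5000 UMIs (log2 change of -0.51) and Pqlc1 at 12000 UMIs (-0.13). Over its alternatives the call of Igfbp3 was kept in 14 of 15, Hey1 in 13 of 14, Esm1 in 13 of 15, Unc5b in 12 of 14, Klf2 in 10 of 15, Tek in 9 of 15, Apoe in 9 of 15 and Khsrp in 5 of 14. The share of endothelial cells was 2.42% (wild-type) and 1.39% (Crect lacZ) at 5000 UMIs and 3.87% and 2.35% at 12000. The positive share was 3.16% and 13.0% at 5000 UMIs, 7.96% and 18.4% at 12000, 13.6% and 30.7% with 3 or more UMIs, and 12.7% and 25.2% on Gja4 alone. On Dll4 alone it was 40.4% (exact Clopper-Pearson interval 33.9 to 47.0) and 50.4% (41.4 to 59.4), and these intervals overlap. Each library alone gives a direction but no test, so counts of calls without a library were not run. Positive and zero sums were paired by library through the block. Between the genotypes no paired analysis was possible because the labels number no replicates and each genotype has 1 library. The cause of these changes was not tested.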

Other observations

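Among the lymphatic genes, Prox1 was rare and uneven. Summed over the list, lymphatic genes stood at 148 and 155 CPM in wild-type and Crect lacZ endothelial cells, against 23.3 and 23.7 CPM in other cells. The list was not uniform. Of its 5 genes with enough UMIs to compare, 2 (Mmrn1 and Flt4) were at least 4-fold higher in endothelial cells of both libraries. Another 2 were at least 4-fold lower. Prox1, the transcription factor that starts lymphatic fate, had 18 UMIs in 10 of the 55 zero cells of the Crect lacZ library, 9 of them in 1 cell, 4 UMIs in 3 of the 19 intermediate cells, which had a median of 20209 UMIs, and 1 UMI in its 53 positive cells. In the wild-type library it had 4 UMIs in the 127 zero cells, 2 in 2 of the 55 intermediate cells and 2 in the 46 positive cells. All 10 zero cells of the Crect lacZ library also held Flt4, the receptor for Vegfc, and Mmrn1. Of the other lymphatic markers, Pdpn was in 1 of them, and none held Lyve1 or Reln. The 1 positive cell with Prox1 held Flt4 and Mmrn1 too. Both genes were at least 4-fold higher in endothelial than in other cells of both libraries, so they do not set these cells apart. These 10 cells had a median of 48482.5 UMIs. Prox1 was in 0.238% of the mesenchyme-gated cells of that library, at a median of 17165 UMIs, and after thinning to 5000 UMIs in none of the zero cells. Lyve1 had no UMI in the positive or zero cells of the Crect lacZ library. Prox1 is described after its values were seen, without a test.

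Other called genes fell outside the naming rule and were chosen after their values were seen. Btnl9, a butyrophilin-like gene, had 25 UMIs in positive and 1 in zero cells of the wild-type library and 32 and 2 in the Crect lacZ library. Dqx1, a helicase-like gene, had 36 and 4, and 26 and 1. Both passed the filter on low counts through the positive cells only. Ackr3, a scavenging receptor for Cxcl12, had 34 and 13, and 63 and 17, and stood at 41.9 and 44.1 CPM in mesenchyme-gated cells. Pdgfa, a growth factor gene, had 6 and 51, and 10 and 32, the other way, and passed the filter on low counts through the zero cells only.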
